A study of Homo sapiens with 6 samples.

Results

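Interferon-stimulated genes were followed in SW620, a line of human colorectal cancer cells first grown from a metastasis in a lymph node, after stable expression of a short hairpin RNA against ECM1. The 9 genes were IRF1, IRF9, ISG15, IFI6, IFI27, IFIT1, IFIT3, IFITM2 and IFITM3. They were chosen by name, as known interferon-stimulated genes, from a table of raw counts with 20476 genes. The table holds 6 libraries, 3 from cells with the ECM1 hairpin (shECM1) and 3 from cells with a negative control hairpin (shNC). All 6 come from 1 cell line, and no interferon or other agent is named in the labels. Whether each group is 1 clone or a pool of transduced cells is not given in the sources used here. ECM1 encodes a secreted matrix glycoprotein, and the stated aim of the study concerned its bearing on the chemokine CCL20. Nothing says that the 3 libraries of a group came from separate cultures, so a p-value here covers the spread among libraries, which could be technical only. The match of columns to groups was read from the letter and number in each column name. With the letters read the other way, each direction below would turn around.

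Interferons are secreted cytokines that cells release on sensing viral or misplaced nucleic acid. Type I and type III interferons act through JAK1 and TYK2 to assemble ISGF3, a transcription factor complex that holds STAT2 and IRF9 and binds the interferon-stimulated response element (ISRE). Interferon gamma acts through JAK1 and JAK2 on genes with gamma-activated sites (GAS), and IRF1 is among the first it switches on. In epithelial tumour cells many of these genes are also transcribed at a low tonic level without added interferon.

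The promoter letters that these factors recognise are shown first, because they divide the members into sets. RefSeq windows of 300 bases, from 250 bases before to 50 bases after a transcript start (build GRCh38.p14), were found for 8 of the 9 members, with 10 windows in all, and not for IFITM2. The ISRE core was searched as GAAANNGAAA on both strands, and the GAS core as TTCNNNGAA, whose reverse complement is the same pattern. In the sequences, written 5′ to 3′ on the strand of the gene, capitals mark these matches. The whole windows of IRF1 and IRF9 are given because they held a GAS core and no ISRE core, and those of ISG15 and the first start of IFIT3 because they held ISRE cores only.
IRF1 (chr5:132490724-132491023, minus strand): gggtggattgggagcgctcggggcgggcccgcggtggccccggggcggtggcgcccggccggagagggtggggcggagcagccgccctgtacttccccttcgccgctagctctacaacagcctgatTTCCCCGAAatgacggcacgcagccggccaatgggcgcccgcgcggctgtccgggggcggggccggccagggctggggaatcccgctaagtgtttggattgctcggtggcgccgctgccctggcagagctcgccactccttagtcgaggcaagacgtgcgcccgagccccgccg
IRF9 (chr14:24161015-24161314, plus strand): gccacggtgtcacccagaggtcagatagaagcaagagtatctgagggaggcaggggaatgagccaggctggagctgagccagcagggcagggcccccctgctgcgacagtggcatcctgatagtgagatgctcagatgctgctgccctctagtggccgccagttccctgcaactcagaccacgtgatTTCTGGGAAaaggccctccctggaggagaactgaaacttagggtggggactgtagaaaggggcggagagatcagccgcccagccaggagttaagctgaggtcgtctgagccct
ISG15 (chr1:1013247-1013546, plus strand): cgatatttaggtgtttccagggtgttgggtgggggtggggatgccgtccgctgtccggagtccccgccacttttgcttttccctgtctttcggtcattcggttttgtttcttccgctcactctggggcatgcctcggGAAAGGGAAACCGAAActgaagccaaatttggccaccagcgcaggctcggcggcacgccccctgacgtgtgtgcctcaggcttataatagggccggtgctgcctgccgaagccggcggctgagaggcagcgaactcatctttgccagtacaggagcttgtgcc
IFIT3 (chr10:89327747-89328046, plus strand): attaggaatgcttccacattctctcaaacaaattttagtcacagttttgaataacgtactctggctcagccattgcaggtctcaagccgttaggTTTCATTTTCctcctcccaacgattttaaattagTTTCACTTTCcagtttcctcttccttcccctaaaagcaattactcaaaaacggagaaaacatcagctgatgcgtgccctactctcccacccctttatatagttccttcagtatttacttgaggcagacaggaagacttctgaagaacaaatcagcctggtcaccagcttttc
The stretches around the matches follow for the remaining members, to show how the cores are spaced.
IFI6 (chr1:27672256-27672368, minus strand): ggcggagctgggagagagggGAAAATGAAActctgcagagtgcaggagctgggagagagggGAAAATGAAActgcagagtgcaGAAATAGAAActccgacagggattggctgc
IFITM3 (chr11:320866-320932, minus strand): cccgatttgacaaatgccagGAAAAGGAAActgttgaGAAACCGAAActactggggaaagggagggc
IFIT1 (chr10:89392487-89392549, plus strand): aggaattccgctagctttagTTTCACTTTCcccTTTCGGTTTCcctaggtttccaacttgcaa
IFI27 (chr14:94110608-94110670, plus strand): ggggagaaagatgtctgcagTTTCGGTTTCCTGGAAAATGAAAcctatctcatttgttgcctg
IFIT3 (chr10:89332415-89332507, plus strand): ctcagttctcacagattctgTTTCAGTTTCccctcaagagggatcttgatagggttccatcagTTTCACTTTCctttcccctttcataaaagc

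ISRE cores lay in the windows of 6 of the 8 members with a promoter entry (75.0%). Over all 27305 genes with a window the share was 4.38%, and over all 35116 windows it was 3.57%. GAS cores lay in the windows of 3 members (37.5%), IRF1, IRF9 and IFI27, against 9.38% of all genes and 7.66% of all windows. In ISG15 the pair of ISRE cores overlapped, beginning 113 and 107 bases before the start. IFI6 held 3 cores, beginning 156, 115 and 93 bases before the start, and the first pair had the same letters. In IFI27 the GAS core overlapped an ISRE core on each side, and its pair of windows, which come from alternative starts, hold the same matches. IFIT1 and both starts of IFIT3 carried their cores on the opposite strand to the gene. These are letter matches only, and no binding was measured in these libraries.

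**Figure D1:**
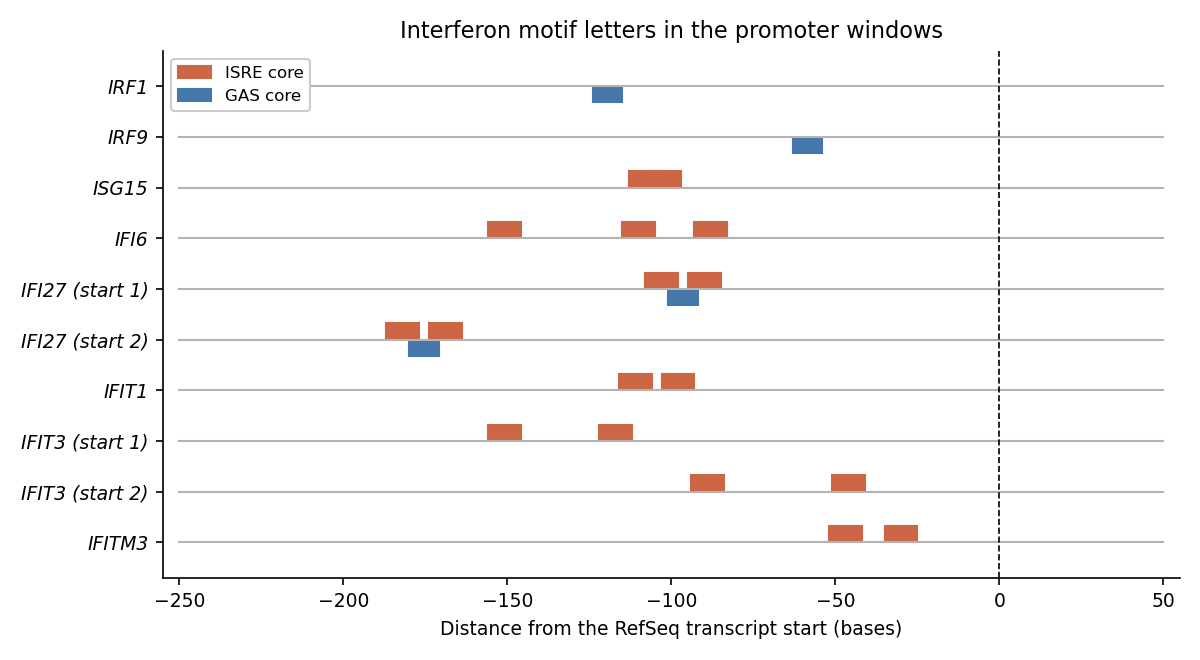
Positions of ISRE cores (orange, above the line) and GAS cores (blue, below the line) in the promoter windows of 8 members, with 1 grey line per window and the distance in bases from the RefSeq transcript start on the x axis. IRF1 and IRF9 have a GAS core alone, while 6 members have ISRE cores.

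Library totals ran from 9881720 to 16813951 counts, and 12576 genes were tested. ECM1 was at 38.8, 19.0 and 52.3 CPM (counts scaled to a common library size by edgeR's TMM) in shNC replicates 1, 2 and 3 and at 14.8, 13.6 and 8.41 in shECM1 (adjusted p of 0.0973 by edgeR, 0.0254 by DESeq2 and 0.000192 by edgeR without shNC replicate 2). CCL20 averaged 26.6 ± 12.1 and 14.2 ± 3.07 CPM (SD, n = 3 each), with adjusted p of 0.122, 0.0251 and 0.00251 in the same order. On the leading principal component (58.1% of variance) shNC replicate 2 lay at 8.64, between shNC replicates 1 and 3 (-25.2 and -41.3) and the shECM1 libraries (16.6 to 23.3). Leaving out the shNC library nearest to shECM1 tends to widen the group differences. Calls made without it are therefore shown as a sensitivity check and add no separate support. For genes named below whose edgeR call changed without that library, both values are given. Of 10 epithelial markers 9 were tested, with EPCAM at 454.6 to 538.0 CPM, while CDX1 had 1 count in all. Of 15 identifiers for 14 immune markers, 6 had 0 counts in every library, among them PTPRC, CD3E, MS4A1 and CLEC4C.

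No member passed the test in the comparison of the hairpins with all 6 libraries. With p-values adjusted by Benjamini-Hochberg, edgeR's quasi-likelihood test called 0 of the 8 members tested, and 0 of all 12576 genes (0.0%). IFI27 did not reach the count filter. DESeq2 called 0 of the 7 members to which it gave an adjusted p, and 701 of 11600 genes (5.09% lower and 0.957% higher). With limma-voom 0 of 8 members and 0 of 12576 genes were called. At an unadjusted p under 0.05, edgeR had IRF1 and IRF9 lower in shECM1, against 14.2% of all genes, and IFIT3 higher, against 8.31%. The groups did not overlap for 1 member on the lower side, IRF9 (13.2% of all genes), and for 1 on the higher side, IFIT3 (11.2%). The log2 fold change (shECM1 minus shNC) was below 0 for 6 of the 8 members and above 0 for 2, beside 6110 of 12576 genes below 0. Its median was -0.29, beside 0.01 over all genes tested, and both moved with a correction for transcript GC content (below). In such libraries, fewer expressing cells and less RNA per cell cannot be told apart.

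**Figure D2:**
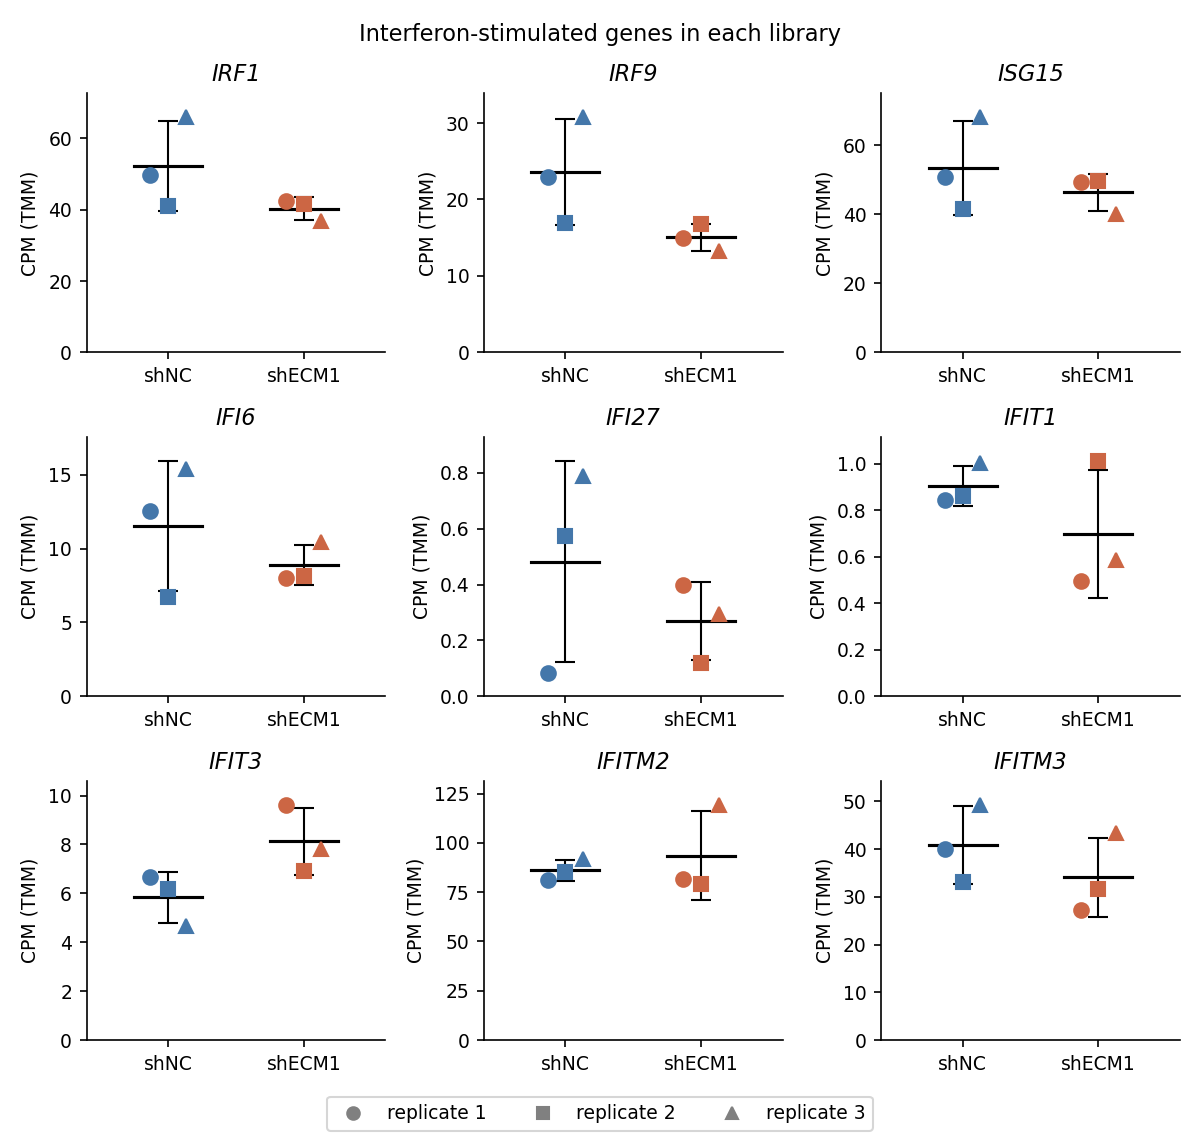
CPM of each member (y axis, linear, from 0) in the shNC and shECM1 libraries, with 1 symbol per library, its shape giving the replicate number, a horizontal line at the mean and a bar for the SD (n = 3). For IRF1, IRF9, ISG15, IFI6 and IFITM3 the highest library is shNC replicate 3, while IFIT3 is lowest there.

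The transcription factors come first. IRF9, the DNA-binding subunit of ISGF3 (ENSG00000213928, GRCh38 chromosome 14, 24161053 to 24166565, plus strand), was at 22.9, 16.95 and 30.8 CPM in shNC replicates 1, 2 and 3 and at 15.0, 16.86 and 13.3 CPM in shECM1. All shECM1 libraries lay below all shNC libraries, but shECM1 replicate 2 (283 counts) and shNC replicate 2 (236 counts) differed only from 16.86 to 16.95 CPM. The means were 23.6 ± 6.94 and 15.1 ± 1.77 CPM (SD, n = 3 each). The log2 fold change was -0.64 ± 0.20 (SE), with an adjusted p of 0.123 by edgeR and 0.0511 by DESeq2. Without shNC replicate 2 it was -0.82 and was called (edgeR adjusted p = 0.0044), and without shNC replicate 3 it was -0.40 and was not (adjusted p = 0.441). The IRF9 locus is also spanned by AL136295.5, an annotated gene on the same strand whose transcripts hold every stretch of 50 bases of the longest coding IRF9 transcript. That gene had 0 counts in every library, and how the authors' counting treated reads shared by the pair is not given in the sources used here, so the IRF9 level is uncertain.

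IRF1, a transcription factor induced early by interferon gamma (ENSG00000125347, chromosome 5, 132481609 to 132490798, minus strand), was at 49.8, 41.0 and 65.9 CPM in shNC and at 42.5, 41.7 and 36.7 CPM in shECM1. The groups overlapped, because shNC replicate 2 lay inside the shECM1 range. The means were 52.3 ± 12.6 and 40.3 ± 3.11 CPM (SD, n = 3 each), from 428 to 921 counts per library. Neither edgeR (adjusted p = 0.204) nor DESeq2 (0.185) called IRF1, at a log2 fold change of -0.38 ± 0.16 (SE). Without shNC replicate 2 it was -0.51 and was called lower (edgeR adjusted p = 0.0187), and without shNC replicate 3 it was -0.17 and was not (adjusted p = 0.659). IRF1 and IRF9 are the pair whose windows, printed above, held a GAS core and no ISRE core.

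ISG15, a ubiquitin-like protein that is joined to other proteins after interferon exposure (ENSG00000187608, chromosome 1, 1001138 to 1014540, plus strand), was at 50.7, 41.5 and 68.2 CPM in shNC and at 49.2, 49.6 and 40.2 CPM in shECM1. The groups overlapped widely, with shNC replicate 3 alone standing above the rest. The means were 53.4 ± 13.5 and 46.3 ± 5.33 CPM (SD, n = 3 each). The log2 fold change was -0.21 ± 0.17 (SE, edgeR adjusted p = 0.485). It turned to 0.01 without shNC replicate 3 and to 0.06 with a correction for transcript GC content, so its direction was not settled.

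IFI6, a small membrane protein that restricts apoptosis and some viruses (ENSG00000126709, chromosome 1, 27666061 to 27672218, minus strand), was at 12.5, 6.75 and 15.4 CPM in shNC and at 8.04, 8.16 and 10.5 CPM in shECM1. Its shNC libraries spanned the whole shECM1 range, with shNC replicate 2 the lowest of all 6. The means were 11.6 ± 4.4 and 8.89 ± 1.36 CPM (SD, n = 3 each). The log2 fold change was -0.37 ± 0.27 (SE, edgeR adjusted p = 0.414). Without shNC replicate 2 it was -0.64 and was called lower (edgeR adjusted p = 0.0258), and without shNC replicate 3 it was -0.11 (adjusted p = 0.898).

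The IFIT genes encode tetratricopeptide repeat proteins, of which IFIT1 binds viral RNA with foreign caps and IFIT3 stabilises IFIT1. IFIT3 (ENSG00000119917, chromosome 10, 89327894 to 89340971, plus strand) was at 6.68, 6.18 and 4.65 CPM in shNC and at 9.63, 6.91 and 7.83 CPM in shECM1. Every shECM1 library lay above every shNC library, and shNC replicate 3, the highest library for 6 of the 9 members, was the lowest for IFIT3. The means were 5.84 ± 1.06 and 8.12 ± 1.38 CPM (SD, n = 3 each), from 65 to 116 counts per library. The edgeR call was missed at 0.47 ± 0.21 (log2 fold change, SE), with an adjusted p of 0.221, and of 0.122 without shNC replicate 2. Its neighbour IFIT1 (ENSG00000185745, chromosome 10, 89392546 to 89406486, plus strand) had 10, 12 and 14 counts in shNC and 5, 17 and 8 in shECM1. These are 0.903 ± 0.0859 and 0.698 ± 0.276 CPM (SD, n = 3 each), with shECM1 replicate 2 the highest of all libraries. Its log2 fold change was -0.32 ± 0.40 (SE, edgeR adjusted p = 0.664). It ran from -0.15 without shECM1 replicate 1 to -0.72 without shECM1 replicate 2, and was -0.18 without shECM1 replicate 3. At this depth no difference in IFIT1 was detectable, since the ratio of summed counts, shECM1 over shNC and scaled by library totals, was 0.831 with an exact 95% interval from 0.495 to 1.39 that covers counting error only. Both genes lie inside the body of LIPA on the opposite strand, and whether counting used strand is not given in the sources used here.

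IFITM2 and IFITM3 encode membrane proteins that block virus entry at the endosome. IFITM2 (ENSG00000185201, chromosome 11, 307631 to 315272, plus strand) was at 81.4, 85.3 and 91.7 CPM in shNC and at 81.6, 79.1 and 119.4 CPM in shECM1. The shNC libraries were close together, and shECM1 replicate 3 alone stood above the others. The means were 86.1 ± 5.21 and 93.4 ± 22.6 CPM (SD, n = 3 each), with a log2 fold change of 0.12 ± 0.15 (SE, edgeR adjusted p = 0.672) that turned to -0.10 without shECM1 replicate 3. IFITM3 (ENSG00000142089, chromosome 11, 319669 to 327537, minus strand) was at 40.1, 33.1 and 49.3 CPM in shNC and at 27.2, 31.6 and 43.4 CPM in shECM1. The groups overlapped, and again shECM1 replicate 3 was the highest of its group. The means were 40.8 ± 8.13 and 34.1 ± 8.37 CPM (SD, n = 3 each), with a log2 fold change of -0.26 ± 0.19 (SE, edgeR adjusted p = 0.424). It was -0.10 without shNC replicate 3 and with the GC offset, -0.12 without shECM1 replicate 1 and -0.47 without shECM1 replicate 3, and was called in none of these fits. The genes are related copies. Of the stretches of 50 bases in the longest coding IFITM2 transcript, 10.4% also occurred in IFITM3. For IFITM3 the share found in IFITM2 was 14.4%. With any other gene the shares were 15.8% for IFITM2 and 20.3% for IFITM3, so part of their reads could be assigned to either gene or to others. The IFITM2 body also spans IFITM1 on the same strand (313506 to 315272), which had 7 counts over all libraries.

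IFI27, a mitochondrial and nuclear envelope protein that is a common blood marker of interferon exposure (ENSG00000165949, chromosome 14, 94104836 to 94116698, plus strand), was barely detected. It had 1, 8 and 11 counts in shNC and 4, 2 and 4 in shECM1. The ratio of the summed counts, shECM1 over shNC and scaled by library totals, was 0.499, with an exact 95% interval from 0.209 to 1.12. That interval covers counting error only and leaves out the spread between libraries, which in shNC was a coefficient of variation of 74.7%. No difference was detectable at this depth.

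Levels were compared between members per kilobase of exon sequence in GENCODE release 29, as a mean over the 6 libraries of both groups. This scale assumes reads from the whole transcript, and it understates long genes if the libraries read 3′ ends, which the labels leave unclear. The exon length joins all annotated exons, and for some members it far exceeds the longest coding transcript. It was 4147 against 725 bases for IFI27, 7799 against 3579 for IRF1 and 1543 against 892 for IFITM2, but 4613 in both for IFIT1. The order and overlaps below hold for this length only, and levels by coding transcript length were not compared. IFITM2 (58.2 ± 9.84 CPM per kilobase, SD, n = 6) and ISG15 (53.0 ± 10.6) were the highest, and their ranges overlapped. IFITM3 followed at 27.8 ± 6.13, apart from its neighbours in the order on either side. IFI6 (11.8 ± 3.77), IRF1 (5.93 ± 1.35), IRF9 (5.09 ± 1.71) and IFIT3 (2.64 ± 0.632) formed a run in which neighbours overlapped. IFIT1 (0.174 ± 0.0465) and IFI27 (0.0907 ± 0.0653) stood below all others and overlapped each other.

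The members did not move as 1 block across the libraries. shNC replicate 3 was the highest library for 6 of the 9 members (IRF1, IRF9, ISG15, IFI6, IFI27 and IFITM3), while IFIT1 was highest in shECM1 replicate 2, IFIT3 in shECM1 replicate 1 and IFITM2 in shECM1 replicate 3. On log2 CPM with 0.5 added and centred on the gene's own mean, shNC replicate 3 stood at 0.53 for IRF1, 0.72 for IRF9, 0.47 for ISG15 and 0.62 for IFI6, but at -0.51 for IFIT3. shNC replicate 2 stood at -0.14 for IRF1, -0.12 for IRF9, -0.24 for ISG15 and -0.51 for IFI6. For 5 members shNC replicate 2 fell inside the range of the shECM1 libraries. The spread within shNC was wider than within shECM1 for IRF1 (coefficient of variation 24.2% against 7.72%), IRF9 (29.4% against 11.8%), ISG15 (25.3% against 11.5%) and IFI6 (38.1% against 15.4%). For IFITM2 (6.05% against 24.2%) and IFIT1 (9.51% against 39.5%) it was narrower, and for IFIT3 (18.1% against 17.0%) about equal. These spreads rest on 3 libraries each and were not tested.

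**Figure D3:**
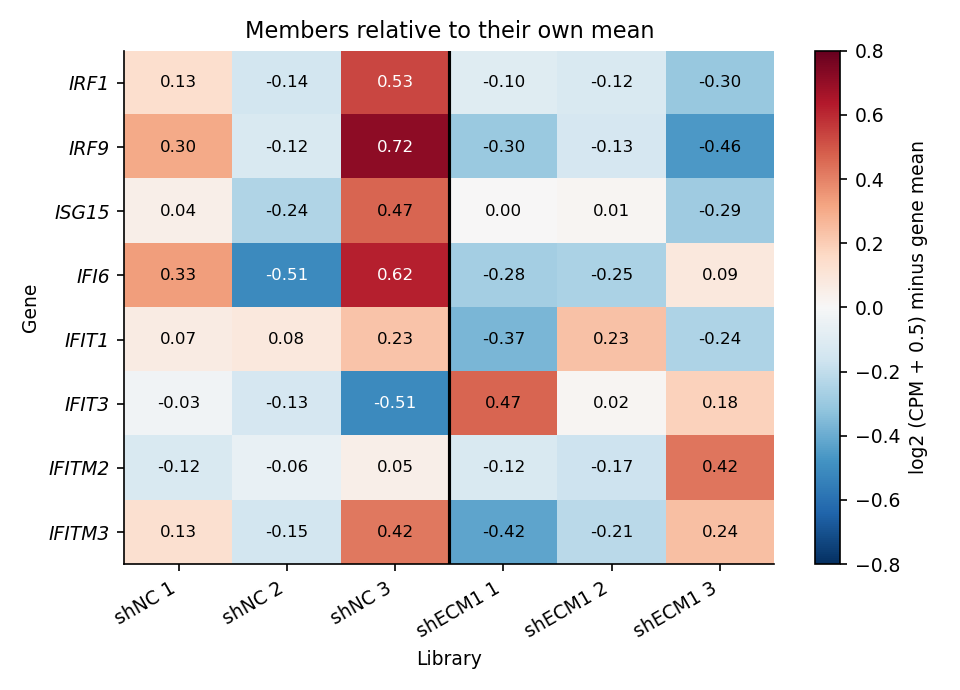
Log2 of CPM plus 0.5, minus the gene's mean over the 6 libraries, for the 8 members that reached the count filter (rows) in each library (columns), red above and blue below the mean, with a vertical line between shNC and shECM1. IRF1, IRF9, ISG15 and IFI6 share their highest library, shNC replicate 3, where IFIT3 has its lowest value of -0.51.

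The gene nearest in pattern to each member was sought among 68 other interferon pathway genes, by the mean absolute difference of the centred log2 values over the 6 libraries. IRF1 lay nearest to IFNGR2, a receptor subunit for interferon gamma, with a difference of 0.046. IRF9 lay nearest to JAK1 (0.104), ISG15 to SP100 (0.09), IFI6 to GBP2 (0.099) and IFIT1 to EPSTI1 (0.078). IFIT3 lay nearest to IFIH1 (0.14), a sensor of viral RNA. IFITM2 lay nearest to LGALS3BP (0.121), and IFITM3 to IRF2 (0.134). Only pathway genes were searched, so each member had to receive a pathway partner. Distances to genes outside the pathway were not compared, and these are descriptions of 6 libraries.

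Other genes of the pathway were read from the same fit, from a list of 105 genes ordered by role. Of these, 104 had a row, 68 were tested and edgeR called 0. At an unadjusted p under 0.05, 20 were lower and 2 higher in shECM1 (14.2% and 8.31% of all genes). DESeq2 called 4 of the 60 with an adjusted p lower and 0 higher, where it called 5.09% of all genes lower and 0.957% higher. The 68 genes had 47 negative log2 fold changes with -0.16 as their median, beside 0.01 over all genes. Without shNC replicate 2, edgeR called 15 of 69 lower (14.1% of all genes) and 3 higher (9.73%), and 3 of 8 members lower.

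The interferons themselves were close to absent. Of 10 ligand genes, 9, including IFNA1, IFNB1 and IFNG, had 0 counts in every library, which allows up to 0.179 to 0.298 CPM per library. IFNE, an epithelial type I interferon, had 3 to 10 counts per library. All 6 receptor genes were tested. IFNGR2 was at 82.2, 62.3 and 106.4 CPM in shNC and at 68.2, 65.2 and 54.5 in shECM1 (log2 fold change -0.42 ± 0.18 SE, edgeR adjusted p = 0.194). Without shNC replicate 2 it was -0.58 and was called lower (edgeR adjusted p = 0.00958). IFNAR1, a subunit of the type I receptor, was at 59.9 ± 3.58 and 69.5 ± 12.6 CPM (SD, n = 3 each) and was not called.

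The signalling kinases and STATs had 5 of 6 negative log2 fold changes. JAK1, the kinase shared by the interferon receptors, was at 309.4, 236.4 and 359.4 CPM in shNC and at 250.3, 242.5 and 193.5 in shECM1 (-0.40 ± 0.15 SE, edgeR adjusted p = 0.168). It was called lower without shNC replicate 2 (edgeR adjusted p = 0.00904). STAT2, the partner of IRF9 in ISGF3, was at 88.1 ± 5.54 and 81.5 ± 7.64 CPM (SD, n = 3 each) and was not called (edgeR adjusted p = 0.556).

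Among the other interferon regulatory factors, all 4 tested genes had shECM1 libraries below all shNC libraries (13.2% of all genes). IRF7, the factor that amplifies type I interferon transcription, was at 42.7, 23.2 and 66.5 CPM in shNC and at 22.1, 20.3 and 12.8 in shECM1. Its log2 fold change was -1.27 ± 0.32 (SE), with an adjusted p of 0.0973 by edgeR and 0.0891 by DESeq2, and without shNC replicate 2 it was called (edgeR adjusted p = 0.000635). IRF3, which relays nucleic acid sensing to interferon genes, was at 72.4 ± 5.91 and 60.3 ± 3.67 CPM (SD, n = 3 each, edgeR adjusted p = 0.195).

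Genes that restrain the response had 7 of 10 negative log2 fold changes. IRF2BP2, a corepressor, was at 117.6 ± 14.7 and 92.5 ± 8.59 CPM, and PTPN11, the phosphatase SHP2, at 114.8 ± 2.52 and 120.8 ± 7.3 CPM (SD, n = 3 each). Of the nucleic acid sensing genes 4 of 7 tested were negative. MAVS, the mitochondrial adaptor of RNA sensing, was at 44.3 ± 1.94 and 38.3 ± 3.86 CPM, and TRIM25, a ubiquitin ligase of the same route, at 96.4 ± 6.2 and 93.3 ± 2.54 CPM (SD, n = 3 each). Of the ISG15 conjugation genes 3 were tested. UBE2L6, the ISG15-conjugating enzyme, was at 3.34 ± 1.49 and 2.41 ± 0.587 CPM, and HERC6 at 4.15 ± 0.88 and 4.39 ± 0.194 CPM (SD, n = 3 each). edgeR called none of these 6 named genes, at adjusted p from 0.143 for IRF2BP2 to 0.856 for HERC6. IRF2BP2 was at -0.43 without shNC replicate 2 and was then called lower (edgeR adjusted p = 0.0156).

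The 4 genes that DESeq2 called lower were all interferon-stimulated genes outside the members. OASL, an oligoadenylate synthetase-like protein, was at 8.71, 5.03 and 10.4 CPM in shNC and at 4.17, 3.99 and 2.27 in shECM1 (edgeR log2 fold change -1.21, DESeq2 adjusted p = 0.0106). ISG20, an RNA exonuclease, was at 126.2, 76.6 and 180.0 CPM in shNC and at 79.8, 77.6 and 63.7 in shECM1 (-0.79, DESeq2 adjusted p = 0.018), and its groups overlapped. LGALS9, the lectin galectin-9, was at 54.6, 33.6 and 72.9 CPM in shNC and at 34.5, 30.8 and 28.2 in shECM1 (edgeR log2 fold change -0.79, DESeq2 adjusted p = 0.0167), also with overlap. IFI35 was at 16.3, 9.19 and 15.9 CPM in shNC and at 8.24, 7.92 and 8.63 in shECM1 (-0.74, DESeq2 adjusted p = 0.0421). edgeR called none of them with all 6 libraries (adjusted p of 0.0975 to 0.115). It called all 4 lower without shNC replicate 2, at adjusted p of 0.00202 for OASL, 0.000681 for ISG20, 0.000636 for LGALS9 and 0.00166 for IFI35. In each of the 4, shNC replicate 2 was the shNC library nearest to shECM1. Of the 4, ISG20 and LGALS9 held an ISRE core, IFI35 held a GAS core only, and no promoter window was found for OASL. Over the whole list of interferon-stimulated genes outside the members, 41 had a promoter window. Of these, 68.3% held an ISRE core, against 4.38% of all genes.

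Marker genes of other cell types had lower sums in shECM1. The summed level of the immune markers was 15.7 to 30.1 CPM in shNC and 11.9 to 13.1 CPM in shECM1. All 5 tested had negative log2 fold changes, beside 6110 of 12576 genes. The detected ones included LYZ (10.9 ± 5.37 and 5.57 ± 0.957 CPM), ITGAX (5.22 ± 1.37 and 2.37 ± 0.82 CPM) and CD4 (3.23 ± 0.494 and 1.48 ± 0.338 CPM; SD, n = 3 each), and DESeq2 called ITGAX lower (adjusted p = 0.0278). With all 6 libraries edgeR did not call LYZ, ITGAX or CD4 (adjusted p of 0.14, 0.105 and 0.103). It called them lower without shNC replicate 2 (adjusted p of 0.00128, 0.00579 and 0.0195). CSF1R and IL3RA, the others tested, had smaller log2 fold changes of -0.50 and -0.16 (edgeR adjusted p of 0.363 and 0.879). Neither was called without that library (edgeR adjusted p of 0.319 and 0.613). Over all genes DESeq2 called 5.09% lower, and edgeR without that library called 14.1% lower. The defining leukocyte gene PTPRC had 0 counts in every library. Fibroblast markers summed to 23.6 to 35.5 CPM in shNC and 16.7 to 20.9 in shECM1, with PDGFRA, COL3A1 and FAP at 0. Most of that sum came from COL1A1 (17.6 ± 4.26 and 8.38 ± 1.27 CPM) and LUM (10.8 ± 1.69 and 9.23 ± 0.808 CPM; SD, n = 3 each). COL1A1 was called lower by DESeq2 (adjusted p = 0.000773), and by edgeR without shNC replicate 2 (0.000681; 0.0973 with all 6 libraries). Endothelial markers summed to 9.73 to 12.2 and 8.04 to 9.22 CPM, with KDR at 0. Epithelial markers summed to 12220 to 18020 CPM in shNC and 11870 to 13220 in shECM1. Of the 9 tested, 7 also had negative log2 fold changes, and edgeR called 4 lower without shNC replicate 2. The part of these markers in the member levels was not tested.

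Choices of scaling, filter and test, with all 6 libraries and no GC offset, moved the members little. The log2 fold change of IRF9 stayed at -0.64 to -0.60 and that of IRF1 at -0.38 to -0.34. Larger moves came from leaving out 1 library or from the GC offset. Over all fits, IRF9 ran from -0.83 to -0.40, IRF1 from -0.52 to -0.17 and IFIT3 from 0.33 to 0.58, with 1 direction each. IFI6 (-0.65 to -0.11), IFITM3 (-0.47 to -0.10) and the low-count IFIT1 (-0.72 to -0.15) also kept 1 direction in the fits that tested them. ISG15 ran from -0.36 to 0.06 and IFITM2 from -0.10 to 0.27.

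**Figure D4:**
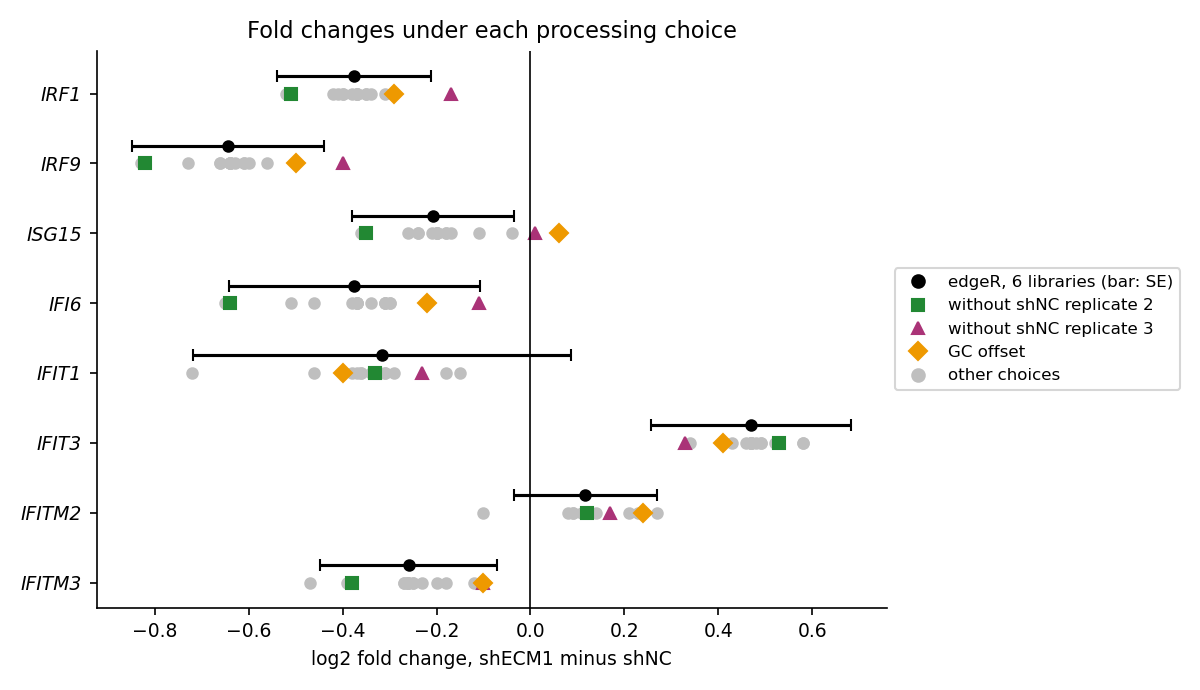
Log2 fold change (x axis, shECM1 minus shNC) of 8 members under each processing choice and with each library left out. Black points are edgeR on all 6 libraries, with bars for their SE, and coloured or grey points are the alternatives. ISG15 and IFITM2 cross 0, while each of the other members shown stays on 1 side of it.

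Transcript GC content moved with the direction of change. Among pathway genes with at least 50% GC in the longest transcript, 31 of 35 had log2 fold changes below 0, and the median was -0.38. Among those under 50% GC, 16 of 33 were negative, with a median of 0.01. Over all genes tested the same division gave 64.6% and 34.0% negative. With a per-library GC trend as an offset, 25 of 35 and 20 of 33 pathway genes were negative, with medians of -0.22 and -0.04, and all genes gave 46.1% and 47.0%. With that offset IRF9 was at -0.50 ± 0.20 (SE, edgeR adjusted p = 0.187), IRF1 at -0.29 (0.289), ISG15 at 0.06 (0.865) and IFIT3 at 0.41 (0.249). Of the 6 members with at least 50% GC, 5 were negative without the offset and 4 with it. Over all 8 members tested, 5 were negative with the offset. Their median went from -0.29 to -0.16, and that of all genes from 0.01 to 0.02. The 50% division was chosen after the values were seen.

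**Figure D5:**
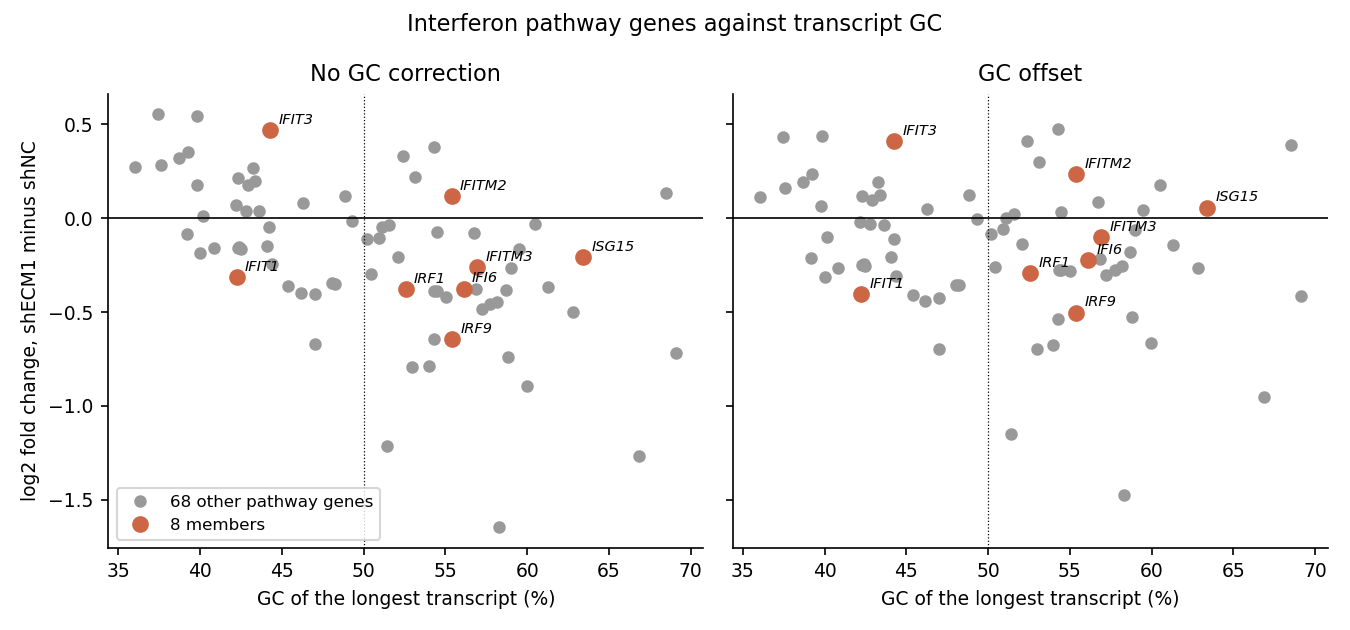
Log2 fold change (y axis, shECM1 minus shNC) against GC percentage of the longest transcript (x axis) for 8 members (orange) and 68 other pathway genes (grey), without a GC correction (left) and with a GC offset (right), and a dotted line at 50% GC. On the left 31 of 35 grey points at or above 50% lie below 0, and on the right 25 do.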

How the data were processed

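The labels' protocols describe total RNA and also droplet single-cell 3′ libraries, and which applies was not settled. What the authors deposited is a single table with a raw count for each gene in each library. The submitters' processing notes name fastp, STAR, featureCounts, DESeq2 and Seurat and the builds GRCh38 and hg38, without roles or versions. Annotation release and strand setting: not given in the sources used here. The match of columns to groups is an inference from their names.

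Counts were fitted in R 4.3.3 with edgeR 4.0.16 (filterByExpr, TMM, quasi-likelihood test, Benjamini-Hochberg over 12576 genes, threshold 0.05), with no covariate. SE was taken as the absolute log2 fold change over the root of F. DESeq2 1.42.0, limma 3.58.1 (voom), other scalings and filters, a GC offset (loess, span 0.3) and each library left out were alternatives. The GC offset without shNC replicate 2 was added after seeing the data. Coordinates, exon lengths and GC came from GENCODE release 29 (GRCh38), and promoters from RefSeq. The fit was tested on simulated counts with a single dispersion for every gene and no library standing apart. That check does not cover a library placed like shNC replicate 2.

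Members and lists were chosen with earlier results of these data known. All 9 members were named. Of each pathway role, genes called by edgeR or DESeq2 were named, and otherwise the 2 of highest mean.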

Additional observations from a re-analysis of the deposited data

How the results depend on the processing

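With edgeR on all 6 libraries 0 genes, 0 members and 0 pathway genes were called. Leaving out 1 library gave 0 to 3037 genes, 0 to 3 members and 0 to 18 pathway genes. Only the fit without shNC replicate 2 was above 0 for any of them. It called 1799 genes lower and 1238 higher in shECM1, of 12730 tested (14.1% and 9.73%). It called 3 of 8 members lower, and of 69 pathway genes 15 lower and 3 higher. Without a count filter the counts were 505 of 16386 genes, 0 of 9 members and 4 of 88 pathway genes. With DESeq2 they were 701 of 11600, 0 of 7 and 4 of 60. DESeq2 without shNC replicate 2 gave 2732 of 12483, 3 of 8 and 17 of 65. The GC offset without that library gave 3355 of 12730 (1610 lower and 1745 higher), 2 of 8 and 18 of 69. Of those 18 pathway genes, 16 were lower and 2 higher. In the edgeR fits without that library, the share of pathway genes called was close to that of all genes. A larger part of the pathway calls were lower. The members called without that library were IRF1, IRF9 and IFI6, and with the GC offset IRF1 and IRF9. ISG15 changed direction without shNC replicate 3 (0.01; range -0.35 to 0.01 with 1 library left out) and with the GC offset (0.06), and IFITM2 without shECM1 replicate 3 (range -0.10 to 0.23). The causes were not tested. Other member values kept their direction, 124 without a change of call and 8 newly past the threshold. The count minimum of 50 removed IFIT1, and DESeq2 gave it no adjusted p.

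The replicate numbers did not pair the libraries, since deviations of same-numbered libraries correlated at -0.07, -0.046 and -0.181. With the replicate block 0 genes were called, and IRF9 was at -0.61 (edgeR adjusted p = 0.195). Depth limits IFIT1 and IFI27, which rested on 1 to 17 counts per library.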

Other observations

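UBA7, the enzyme that activates ISG15 for conjugation, had the most negative log2 fold change of the 68 tested pathway genes. It had 16, 17 and 11 counts in shNC and 4, 3 and 7 in shECM1, so that the groups did not overlap. The log2 fold change was -1.65 ± 0.48 (SE, edgeR adjusted p = 0.112), and -1.56 without shNC replicate 2 (edgeR adjusted p = 0.0564). It was chosen after its values were seen, and its counts are low.

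The 3 pathway genes called higher without shNC replicate 2 were IFIT5, a relative of IFIT3, EIF2AK2, the RNA-activated kinase PKR, and TBK1, the kinase that activates IRF3. IFIT5 was at 0.78 (edgeR adjusted p = 0.00633), EIF2AK2 at 0.52 (0.0476) and TBK1 at 0.44 (0.0433). With all 6 libraries they were at 0.55, 0.32 and 0.36 and were not called by edgeR (adjusted p of 0.13, 0.326 and 0.172). SOCS3, a feedback inhibitor of cytokine receptors chosen after its values were seen, was on the other side, at -0.90 ± 0.28 (SE, edgeR adjusted p = 0.121) with all libraries and -1.12 (0.00482) without shNC replicate 2.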
